A study of Homo sapiens with 27 samples.

Results

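The subtelomeric insertions are the transposon insertion sites that lie within 2 Mb of a chromosome end on chromosomes 1 to 22, leaving out the short arms of the acrocentric chromosomes 13, 14, 15, 21 and 22. The rule uses position alone, from the GRCh38 chromosome lengths, and no insertion value enters it. It was set with earlier results of these data known. Over all 27 libraries, 102585 of 5255296 site listings on chromosomes 1 to 22 were subtelomeric, or 54198 of 2884349 distinct positions. The 39 arm ends cover 78 Mb, which is 2.71% of the length of these chromosomes.

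The cells were HCT116, an established human colorectal carcinoma line, and each of the 9 groups held 3 libraries. Every group received a self-reporting transposon, which transcribes out of its own end into the flanking genome so that RNA reveals where it landed, and all cells were held for 2 weeks in puromycin at 3 µg/ml. The wild-type transposon was combined with piggyBac in WT_PB and with hyperactive piggyBac in WT_hyPB. It was combined with the re-engineered forms of these enzymes in WT_rePB and WT_rehyPB. A wild-type transposon was also combined with piggyBat in WT_PBat, and the labels do not say whether it was the same element. The short transposon was combined with the unmodified enzymes, wild-type piggyBac in short_PB and hyperactive piggyBac in short_hyPB. The symmetric transposon was combined with the re-engineered enzymes, without the hyperactive change in sym_rePB and with it in sym_rehyPB. The labels do not spell out which residues or ends were altered, and they name replicates without saying whether these were separate transfections, so the p-values measure the spread between these libraries. Selection means that only insertions in surviving, puromycin-resistant cells were read.

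PiggyBac is a cut-and-paste DNA transposase from an insect element that integrates at the 4-base sequence TTAA, and piggyBat is its relative from a bat. Subtelomeres are the stretches next to the telomere repeats. Many are dense in genes and rich in G and C, and their outermost parts hold blocks of sequence copied between chromosomes, where short reads are hard to place. Insertion near a chromosome end matters for gene transfer because transgenes there can be silenced by the neighbouring telomeric chromatin.

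The target sequence can be read directly where insertions fell in promoter windows, taken as the 250 bases before to 50 bases after a gene start (RefSeq, GRCh38.p14). Of 29984 sites in such windows over all libraries, 97.7% lay exactly on a TTAA. The 4 subtelomeric promoters with the most listings are shown 5′ to 3′ because they let the reader see the target in its surroundings: each TTAA that carried an insertion is in capitals and all else is in lower case. MC1R encodes the melanocortin receptor, TSPAN10 a tetraspanin and CUL4A the scaffold of a ubiquitin ligase, and DBET is a noncoding RNA gene beside the D4Z4 repeats of 4q.
MC1R, chr16:89918612-89918911, + strand: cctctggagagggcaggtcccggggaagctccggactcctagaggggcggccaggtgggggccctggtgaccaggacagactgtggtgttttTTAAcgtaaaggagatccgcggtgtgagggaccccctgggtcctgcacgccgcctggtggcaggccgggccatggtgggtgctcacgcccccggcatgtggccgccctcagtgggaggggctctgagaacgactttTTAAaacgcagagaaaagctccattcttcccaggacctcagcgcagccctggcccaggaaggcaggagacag
TSPAN10, chr17:81642055-81642354, + strand: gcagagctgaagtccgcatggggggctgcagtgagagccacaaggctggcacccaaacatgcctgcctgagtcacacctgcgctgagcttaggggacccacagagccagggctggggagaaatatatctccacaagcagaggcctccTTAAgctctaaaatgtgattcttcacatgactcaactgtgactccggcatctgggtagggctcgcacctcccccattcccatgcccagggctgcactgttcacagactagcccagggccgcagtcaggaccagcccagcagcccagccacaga
DBET, chr4:190064252-190064551, + strand: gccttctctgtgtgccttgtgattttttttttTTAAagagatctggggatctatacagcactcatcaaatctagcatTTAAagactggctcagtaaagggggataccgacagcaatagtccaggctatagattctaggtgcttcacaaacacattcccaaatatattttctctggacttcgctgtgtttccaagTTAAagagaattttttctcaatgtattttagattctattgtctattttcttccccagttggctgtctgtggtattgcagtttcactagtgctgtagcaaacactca
CUL4A, chr13:113207943-113208242, + strand: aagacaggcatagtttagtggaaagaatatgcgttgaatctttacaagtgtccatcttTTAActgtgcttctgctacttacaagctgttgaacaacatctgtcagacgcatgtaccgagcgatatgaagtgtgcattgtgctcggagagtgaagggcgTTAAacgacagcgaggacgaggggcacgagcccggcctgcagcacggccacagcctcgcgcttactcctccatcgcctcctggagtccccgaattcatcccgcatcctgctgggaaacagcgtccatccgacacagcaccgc

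Every TTAA in these 4 windows carried an insertion in at least 1 library. The pair of targets in the MC1R promoter, at bases 93 and 229 of the window, was listed in 11 and 16 libraries, and 19 of 27 libraries had at least 1 of them. The single TTAA of TSPAN10, at base 148, was listed in 18 libraries. Those were all 3 libraries of WT_PB, of WT_hyPB and of WT_rePB, 0 of WT_rehyPB, 2 of short_PB, all 3 of short_hyPB, 2 in each symmetric group and 0 of WT_PBat. DBET was listed only with the wild-type transposon and piggyBac forms, in 11 libraries. For CUL4A, base 159 was listed in 12 libraries, 3 in each of those 4 groups, and base 59 in 4. The libraries of those groups list far more sites than the others. Absence from the other libraries is therefore not read as a difference between transposons or transposases.

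Subtelomeric promoters, none of them on chromosome 8 here, held fewer targets than others. Of 1618 subtelomeric promoters in the table, 28.2% contained the letters TTAA (a palindrome, so both strands are covered), with 0.446 per promoter, against 47.8% of 24628 other promoters, with 0.89 per promoter. In WT_PB, 6.79% ± 1.21 (SD, n = 3) of the TTAA sequences in subtelomeric promoters carried a listed insertion, beside 9.09% ± 0.638 of those in other promoters. In WT_rehyPB the values were 5.82% ± 1.08 and 6.06% ± 0.564. The ratio of the subtelomeric to the other level was 0.749 ± 0.133 in WT_PB against 0.791 ± 0.047 in WT_rePB, and 0.765 ± 0.059 in WT_hyPB against 0.956 ± 0.111 in WT_rehyPB. These rest on 33 to 59 subtelomeric hits per library and were not tested.

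The libraries differed in depth. The 12 libraries of the wild-type transposon with a piggyBac form listed 329453 to 558486 sites on chromosomes 1 to 22, and the other 15 listed 2795 to 9077. Some replicates shared most of their sites. In WT_hyPB, 79% and 79.6% of the subtelomeric sites of replicates 1 and 2 were also listed in another replicate, against 30.8% in replicate 3, and in WT_PBat the values were 61.1% and 52.6% in replicates 1 and 3, against 11.3% in replicate 2. The tested effects were also computed with the linked libraries averaged as 1. The descriptions (promoter targets, share by peak height, distances beyond 2 Mb, arm orders and rank correlations) were not, and they count these libraries separately. No library listed a site in the first 2 Mb of an acrocentric short arm, and the site closest to any end lay 10709 bases from it. Whether reads can be placed in those stretches was not analysed, so neither is read as a result on insertion.

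With the wild-type transposon and a piggyBac form, the subtelomeres held a smaller share of sites than of length. The share of sites within 2 Mb of an end was 1.87%, 1.86% and 1.89% in the 3 WT_PB libraries, 1.91%, 1.92% and 1.94% in WT_hyPB, 1.94%, 1.88% and 1.89% in WT_rePB, and 2.02%, 2.07% and 2.04% in WT_rehyPB. The WT_rehyPB libraries were the highest of these 12, while WT_rePB overlapped both WT_PB and WT_hyPB. Against the 2.71% of length, the mean share was 0.691 times as high in WT_PB and 0.753 times in WT_rehyPB. The number of TTAA targets per length was not analysed here, so these ratios are to length and not to available targets. For 1 WT_PB library the 95% Wilson interval of a share of 1.87% was 1.83% to 1.91%. It covers the counting error of distinct sites only, and not the spread between libraries.

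Re-engineering the transposase raised the subtelomeric share by 0.077 percentage points over both pairs (two-sided exact permutation test within pairs, p = 0.015, adjusted p = 0.0225 over 6 effects). With same-numbered libraries paired in both pairs the adjusted p was 0.075, and with only WT_PB and WT_rePB paired, the groups whose numbers went together, it was 0.0375 (exact permutation). For piggyBac the mean was 1.87% ± 0.0169 unmodified and 1.91% ± 0.0341 re-engineered (SD, n = 3 each), a difference of 0.031 points in which the libraries overlapped. For hyperactive piggyBac it was 1.92% ± 0.017 and 2.04% ± 0.0243, a difference of 0.122 points or 6.34%, with no overlap. The difference between the pairs gave p = 0.015, adjusted p = 0.05 in the exact permutation test, which does not pass the threshold of under 0.05. The effect was 0.074 points with the linked libraries averaged and 0.066 to 0.081 points when each arm was left out in turn, lowest without 2q. It was not past the threshold among sites unshared between replicates, at 0.022 points with adjusted p = 0.255 (exact permutation), nor among sites outside annotated genes, at 0.039 points with adjusted p = 0.112 (exact permutation).

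**Figure D1:**
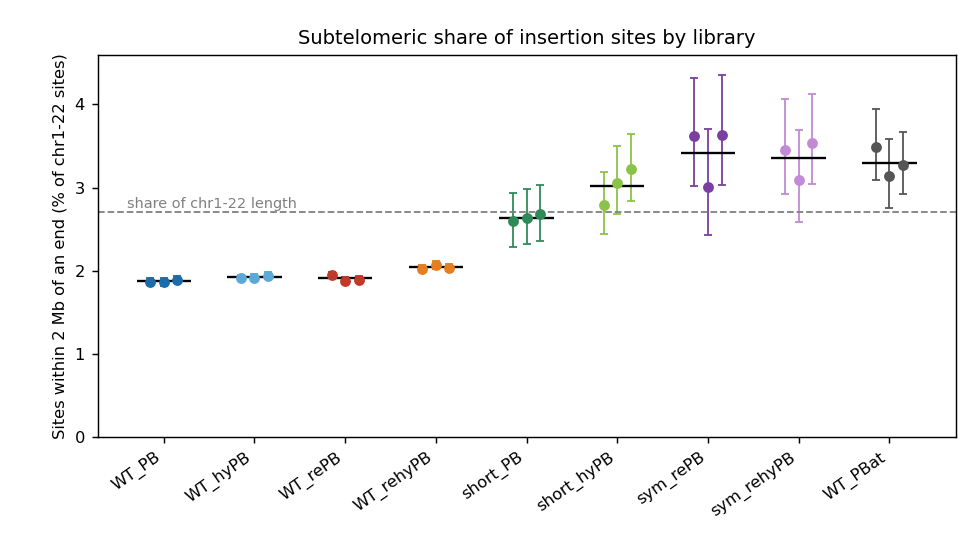
Share of sites on chromosomes 1 to 22 that lie within 2 Mb of an end (y axis, percent) for each of 27 libraries by group (x axis). Points are libraries with 95% Wilson intervals, black bars are group means of 3 libraries, and the dashed line is the 2.71% of length; the 4 deep groups lie at 1.86% to 2.07%, below it.

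The other transposons and piggyBat gave higher shares. The short_PB libraries had 2.59%, 2.63% and 2.68%, and those of short_hyPB 2.79%, 3.06% and 3.22%. With the symmetric transposon, the sym_rePB libraries had 3.62%, 3.01% and 3.63% and the sym_rehyPB libraries 3.45%, 3.09% and 3.54%. The piggyBat libraries had 3.49%, 3.14% and 3.27%. All of these lay above all 12 deep libraries. The short transposon was higher than the wild-type transposon by 0.930 points and the symmetric by 1.414 points (exact permutation, p = 0.005 and adjusted p = 0.015 for each, the smallest p that 2 pairs allow). WT_PBat exceeded WT_PB by 1.426 points, and 3 against 3 libraries cannot go below the p = 0.1 that the exact permutation test gave. Transposon and transposase may both differ between WT_PBat and WT_PB, which the labels do not settle. Part of these differences lay on a few arms. Without 8q, 10q, 16q and 17q they were 0.600, 0.738 and 0.803 points, in the order short, symmetric and piggyBat. With the share taken only among sites over 5 kb from a coding gene end, they were 0.526, 0.642 and 0.875 points in the same order. That share has another denominator, so these values do not give a part that lay near gene ends, which was not tested. Depth moved with these 3 comparisons. When each library was cut to its tallest peaks at equal site numbers, the differences were 0.319 points (adjusted p = 0.03), 0.328 points (adjusted p = 0.186) and 0.779 points (adjusted p = 0.186, all exact permutation).

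In the 4 deep groups the subtelomeric share was higher among taller peaks, height being the largest read depth in a peak. In WT_PB the share was 1.74% ± 0.078 (SD, n = 3) among peaks of height 5 to 6 and 2.35% ± 0.133 at 50 or more. In WT_rehyPB it was 1.90% ± 0.0805 and 2.62% ± 0.122. The shallow groups had too few tall peaks to follow this: in WT_PBat the 7.94% ± 1.10 at 50 or more rests on 3 subtelomeric sites in each library, and short_hyPB had none. From height 10 to 19 to height 20 to 49 the mean was 3.14% and 4.40% in short_PB and 3.37% and 4.31% in WT_PBat, but 3.61% and 3.57% in short_hyPB, 3.88% and 3.33% in sym_rePB and 4.31% and 3.30% in sym_rehyPB. The part of peak height in the differences between transposons was not otherwise tested.

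The symmetric transposon with a re-engineered transposase exceeded the short transposon with an unmodified one by 0.560 points (exact permutation, p = 0.01, adjusted p = 0.02). Here transposon and transposase changed together and cannot be told apart. The pair without the hyperactive change differed by 0.785 points and the hyperactive pair by 0.335, with overlap. The comparison was not past the threshold within 1 Mb, at 0.151 points (adjusted p = 0.14, exact permutation), or at a peak height of 10 or more, at 0.571 points (adjusted p = 0.192, exact permutation). The hyperactive transposase differed from its parent by 0.129 points over 4 pairs (exact permutation, p = 0.0964, adjusted p = 0.1), which did not pass. Its pairs gave 0.048 points in WT_hyPB, 0.138 in WT_rehyPB, 0.390 in short_hyPB and −0.060 in sym_rehyPB.

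Within the 2 Mb, the outermost 250 kb held the fewest sites in all 9 groups. Further in there was no steady trend: in WT_PB the share was highest at 750 to 1000 kb, with 0.275% ± 0.00382, and 0.235% to 0.245% in the steps beyond. The first 250 kb held 0.154%, 0.165% and 0.167% of all sites in the WT_PB libraries, and 0.158%, 0.16% and 0.164% in WT_hyPB. The values were 0.172%, 0.179% and 0.186% in WT_rePB and 0.185%, 0.194% and 0.197% in WT_rehyPB. Neither re-engineered group overlapped its unmodified partner. Re-engineering raised this outermost share by 0.0242 points (exact permutation, p = 0.005, adjusted p = 0.04 over 8 steps), 1.11 times for piggyBac and 1.19 times for hyperactive piggyBac. As a share of the subtelomeric sites themselves, the first 250 kb held 8.65% ± 0.34 in WT_PB and 9.41% ± 0.212 in WT_rePB, and 8.36% ± 0.111 and 9.38% ± 0.271 in their hyperactive counterparts (SD, n = 3). In the shallow groups it held 4.45% to 5.80%.

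The share also rose at 500 to 750 kb, by 0.0155 points (exact permutation, adjusted p = 0.04), and there the hyperactive pair, at 0.0226 points, moved more than the other, at 0.0084 (exact permutation of the difference, p = 0.01, adjusted p = 0.04 over 16 tests). The 6 other steps did not pass, with differences of 0.0014 to 0.0121 points and adjusted p of 0.1 to 0.875 (exact permutation). With same-numbered libraries paired, both called steps had an adjusted p of 0.05 when only WT_PB and WT_rePB were paired and 0.125 when both pairs were (exact permutation), neither under the threshold. Both called steps had an adjusted p of 0.06 (exact permutation) without WT_PB replicate 2, and so did the second without WT_PB replicate 1 or WT_rePB replicate 1. The share went on changing further inward. In WT_PB each following 2 Mb held more sites, with 2.33% ± 0.00452 at 2 to 4 Mb, 2.58% ± 0.0356 at 4 to 6 Mb, 2.68% ± 0.0295 at 6 to 8 Mb and 2.97% ± 0.0551 at 8 to 10 Mb. The log2 ratio of sites at 0 to 2 Mb over 2 to 4 Mb was −0.316 in WT_PB, −0.317 in WT_rePB, −0.294 in WT_hyPB and −0.256 in WT_rehyPB, and re-engineering moved it by 0.018 (exact permutation, adjusted p = 0.152), which did not pass.

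**Figure D2:**
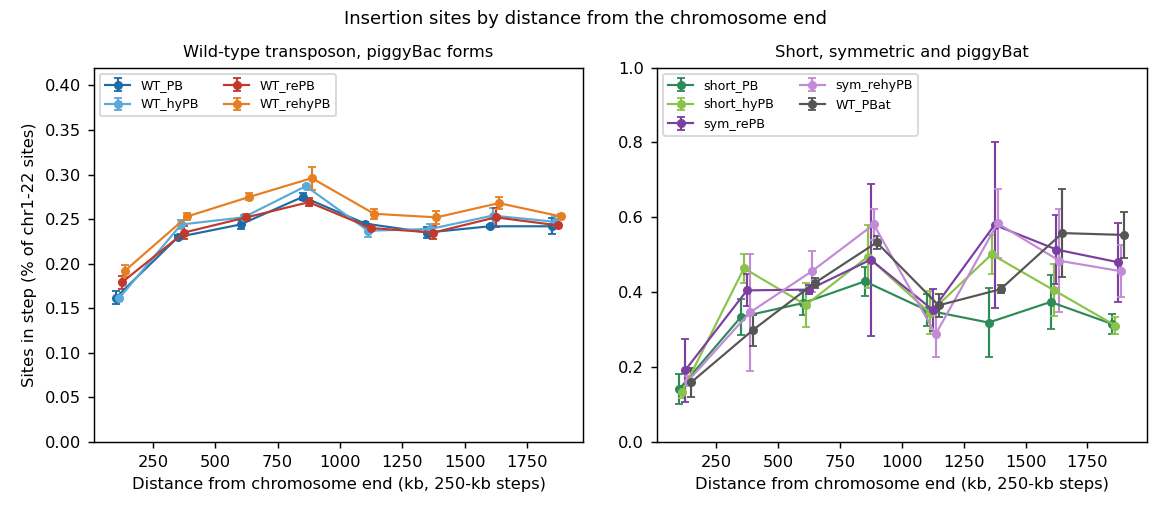
Sites in each 250-kb step from the chromosome end (x axis, kb) as a percent of sites on chromosomes 1 to 22 (y axis, mean ± SD of 3 libraries; the panels have different y scales), for the 4 deep groups on the left and the 5 shallow groups on the right. The outermost step is the lowest in every group, and in it both re-engineered groups, at 0.179% and 0.192%, lie above WT_PB at 0.162% and WT_hyPB at 0.161%.

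The gain in the first 250 kb was spread over many arms. It was seen in the mean of both pairs at 21 of 39 arms and reversed in both at 5, a count given as a description. The ends of 10p, 18q and 8q made up 12.5%, 11.7% and 11.4% of the summed difference. In the first 250 kb of 18q, WT_PB had 0.487 sites per 10000 and WT_hyPB 0.494, against 0.687 in WT_rePB and 0.859 in WT_rehyPB. At 1q the outermost step went the other way, with 1.10 and 1.02 against 0.946 and 0.99. By arm type, re-engineering raised the share on short arms by 0.041 points (exact permutation, adjusted p = 0.02 over 8 measures), with no overlap in either pair; with same-numbered libraries paired the adjusted p was 0.05 (WT_PB and WT_rePB only) or 0.125 (both pairs). On long arms it was 0.036 points (adjusted p = 0.1, exact permutation), made up of 0.000 points for piggyBac and 0.072 for hyperactive piggyBac, and this difference between the pairs passed (p = 0.01, adjusted p = 0.04, exact permutation).

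Arms differed far more among themselves than the 4 deep groups did. In the mean of the 4 deep groups, the densest ends were 3q with 9.60 sites per 10000, 20p with 9.49, 12p with 9.07, 15q with 8.97 and 17q with 8.83. The sparsest were 3p with 0.132, 14q with 1.12, 8p with 1.21, 11q with 2.34 and 19q with 2.42. The 2 Mb of 3p held 0.116 ± 0.0842 sites per 10000 (SD, n = 3) in WT_PB and 0.154 ± 0.0122 in WT_rePB. With hyperactive piggyBac the values were 0.0933 ± 0.0754 unmodified and 0.165 ± 0.0796 re-engineered, and no site was listed there in any of the 15 shallow libraries. The near-empty stretch of 3p went past the window: each deep library listed 0 to 9 sites in each of the first 3 Mb, 22 to 53 at 3 to 4 Mb and 131 to 248 at 4 to 5 Mb. The cause was not tested, so the 3p value is not read as a rate of insertion. The densest 5 lay within 1 site per 10000 of each other, and their order changed between groups: 20p led in WT_hyPB and 3q in the other 3.

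Each arm end was tested as 1 of 1287 2-Mb windows of the genome with limma, on log2 of sites per 10000, in the 12 deep libraries. Re-engineering changed 25.3% of all windows, 14.2% upward and 11.1% downward. Of the 38 arm ends tested (3p fell below the filter of 20 sites), 9 rose and 2 fell, with a median log2 change of 0.061 beside 0.019 over all windows. The share of arm ends that rose was thus 9 of 38 beside the genome's 14.2%. Scaled to the median window, 7 rose and 3 fell, and over all windows 85 rose and 190 fell. With the linked libraries averaged, 253 of all windows were called instead of 326, 131 upward and 122 downward. Of the arm ends, 9 then rose and 1 fell.

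The largest gain was at 18q, whose end holds ATP9B, a lipid flippase gene. The 18q end had 3.06, 3.20 and 3.24 sites per 10000 in WT_PB and a mean of 2.98 ± 0.365 (SD, n = 3) in WT_hyPB, against 3.51, 3.58 and 4.18 in WT_rePB and 3.77, 3.82 and 4.32 in WT_rehyPB. Every re-engineered library lay above every unmodified one (log2 change 0.33 ± 0.07 SE, adjusted p = 4.25e-05). At 2q the values were 4.65, 4.66 and 4.80 in WT_PB, 4.50, 4.55 and 4.87 in WT_hyPB, 5.05, 5.21 and 5.37 in WT_rePB and 5.64, 6.50 and 6.58 in WT_rehyPB. Again every re-engineered library was higher (0.28 ± 0.05, adjusted p = 5.78e-06). The ends of 8q (0.22 ± 0.05, adjusted p = 0.00137) and 21q (0.18 ± 0.05, adjusted p = 0.00119) rose as well. These 4 calls were kept under all 19 alternatives.

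The other gains were smaller or less steady. The end of 1p rose by 0.20 on the log2 scale, 9p by 0.18, 12p by 0.13, 3q by 0.12 and 20p by 0.10, with limma adjusted p of 0.00537 to 0.0323. The calls at 9p and 20p were kept under 10 of 19 alternatives. The losses were at 1q (−0.22 ± 0.07, adjusted p = 0.013) and 4q (−0.17 ± 0.06, adjusted p = 0.0284). The 1q end had 3.10, 3.59 and 3.78 sites per 10000 in WT_PB and 3.07, 3.17 and 3.45 in WT_hyPB, against 2.69, 2.79 and 3.16 in WT_rePB and 2.70, 2.82 and 3.13 in WT_rehyPB. The libraries overlapped in each pair. The 4q end, which holds the D4Z4 repeats, had 4.21 to 4.90 in WT_PB and 3.86 to 3.93 in WT_hyPB, against 3.90 to 4.33 in WT_rePB and 3.18 to 3.85 in WT_rehyPB. Its call was kept under 10 of 19 alternatives, and 1 arm end fell with the linked libraries averaged and 0 at a peak height of 10 or more. HCT116 is known to carry extra copies of parts of 8q, 10q, 16q and 17q. Without those arms the re-engineering effect on the subtelomeric share was 0.062 points (exact permutation, adjusted p = 0.02), while those of the short and symmetric transposons and of piggyBat moved by over 1.5 times, as given above.

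**Figure D3:**
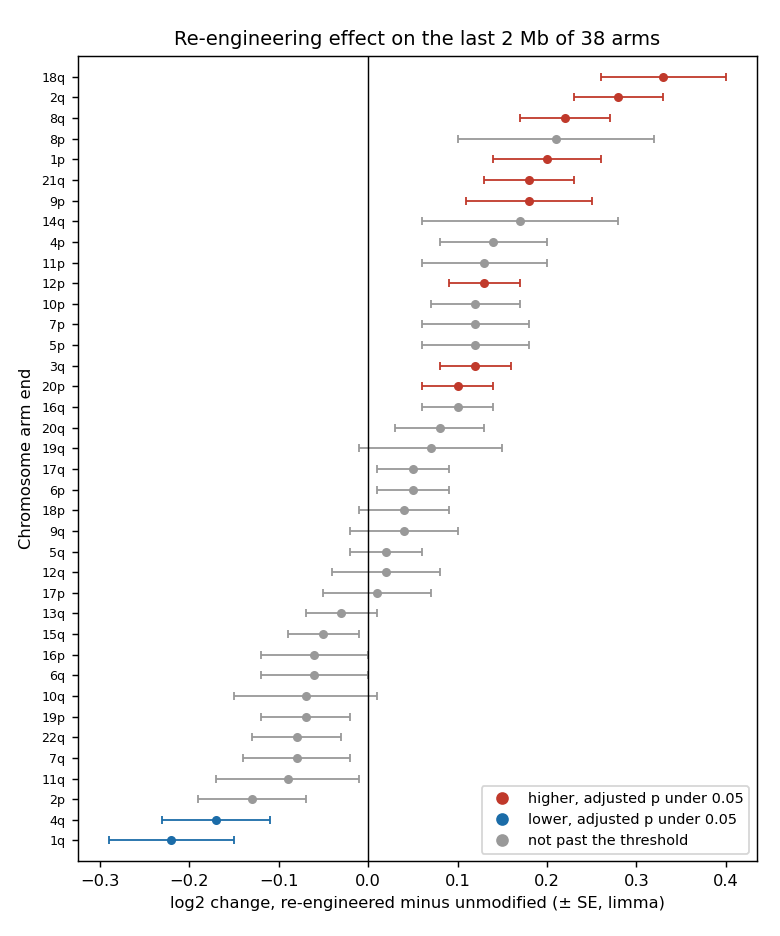
Change in sites at each of 38 arm ends (y axis) as log2 of re-engineered over unmodified transposase (x axis), with points for the limma estimate over both pairs and bars for its SE. Red points rose and blue points fell at an adjusted p under 0.05; 18q is highest at 0.33 and 1q lowest at −0.22.

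The hyperactive change was tested in the same fit. It changed 35.4% of all windows, 14.9% upward and 20.4% downward, and 10 of 38 arm ends rose and 3 fell (limma), with a median of 0.063 beside −0.013 over all windows. The scaling mattered for the whole genome here, since 332 windows rose and 158 fell when scaled to the median, with 14 arm ends higher and 2 lower. With the linked libraries averaged, 397 windows were called instead of 455, with 10 arm ends higher and 3 lower. The ends that rose included 19q (0.33 ± 0.08, adjusted p = 3.94e-04), 19p (0.27 ± 0.05, adjusted p = 1.00e-05), 17q (0.26 ± 0.04, adjusted p = 1.48e-08) and 16p (0.23 ± 0.06, adjusted p = 0.00113). None of these 4 was called for re-engineering, where they had log2 changes of −0.07 to 0.07. The hyperactive and re-engineering contrasts share libraries. The 3 that fell were 2p (−0.32 ± 0.06, adjusted p = 5.08e-06), 4q (−0.23 ± 0.06, adjusted p = 0.00162) and 9p (−0.17 ± 0.07, adjusted p = 0.0288).

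Several arms stood in another place in the shallow groups. At 17q, WT_PB had 7.47, 7.84 and 8.66 sites per 10000, while sym_rePB had 32.2, 35.4 and 53.5, sym_rehyPB 32, 39.8 and 48.5, and WT_PBat 28.1, 36.8 and 46.6. At 19p, the window with the most genes, WT_PB had 4.51, 4.72 and 4.91 and WT_PBat 23.7, 35.3 and 36.8. At 4q, WT_PB had 4.21, 4.53 and 4.90 per 10000. There sym_rePB listed 1, 1 and 0 sites, WT_PBat 0, 2 and 3, and sym_rehyPB none in any library. With 3755 to 4521 sites in each sym_rehyPB library, these counts are too small to be read as a depletion at 4q. Thus 17q and 19p were several times denser in those groups, without overlap with WT_PB. Over the 39 arms, the rank correlation of mean density was 0.923 to 0.977 between deep groups, 0.817 to 0.919 between shallow groups and 0.396 to 0.784 between a deep and a shallow group. These are descriptions over arms that share libraries and depth.

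Density was also set against the number of protein-coding genes wholly inside the window, as a description. Its rank correlation with density over 39 arms was −0.07 in WT_PB and 0.0335 in WT_rePB, and 0.152 and 0.161 in their hyperactive counterparts. The short transposon gave 0.588 with piggyBac and 0.656 with its hyperactive form, the symmetric transposon 0.71 and 0.725 in the same order, and piggyBat 0.709. Depth differed between these sets of groups as well, and its part was not tested.

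**Figure D4:**
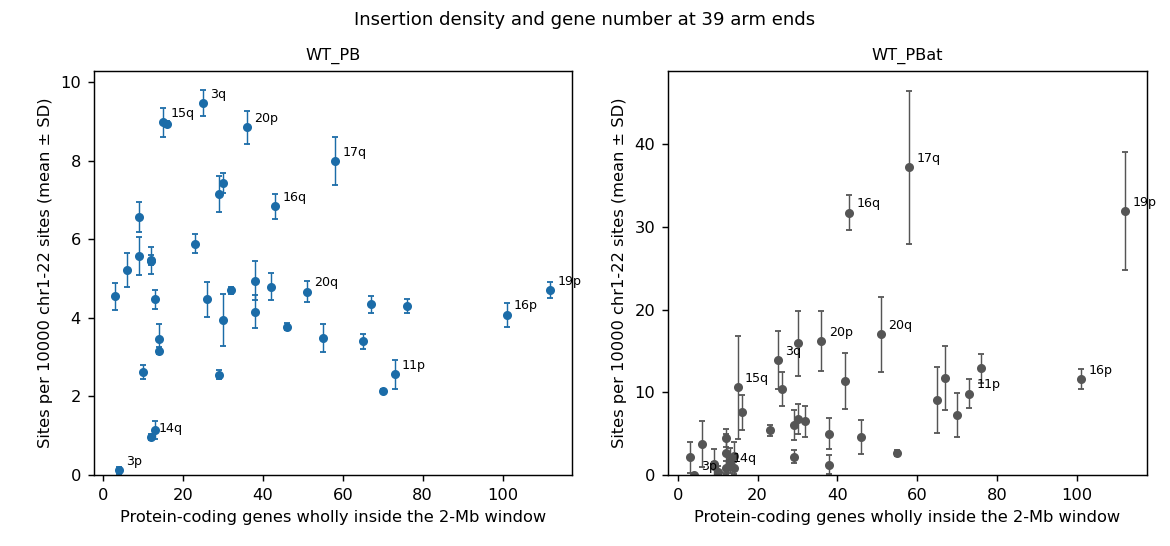
Sites per 10000 in the last 2 Mb of each of 39 arms (y axis, mean ± SD of 3 libraries; the panels have different y scales) against the number of protein-coding genes wholly inside that window (x axis), for WT_PB and WT_PBat. The arms 17q, 16q and 19p stand above the others in WT_PBat, while in WT_PB 3q leads and 19p lies at 4.71.

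Subtelomeric sites were set against the ends of genes. The windows, 2.71% of the length of chromosomes 1 to 22, wholly held 1357 protein-coding genes. On chromosomes 1 to 22 and X there were 19970. The part of this gene density in the values below was not tested. In WT_PB, 31.3% ± 0.418 (SD, n = 3) of subtelomeric sites had a start or end of a protein-coding gene at most 5 kb away, against 17.8% ± 0.0337 of the other sites. The values were 32.2% ± 0.208 and 18.6% ± 0.0978 in WT_hyPB, 28% ± 0.611 and 15.9% ± 0.131 in WT_rePB, and 30.4% ± 0.511 and 17.4% ± 0.15 in WT_rehyPB. Re-engineering changed the subtelomeric value by −3.273 points for piggyBac and −1.843 for hyperactive piggyBac, a mean of −2.558 points with no overlap in either pair (exact permutation, p = 0.005, adjusted p = 0.02). At the other sites the change was −1.594 points, and the difference of the subtelomeric change from it, −0.964 points, passed as well (exact permutation, p = 0.01, adjusted p = 0.025 over 5). As a factor, the re-engineered value was 0.895 (piggyBac) and 0.943 (hyperactive piggyBac) of the unmodified one at subtelomeric sites, and 0.89 and 0.934 at the other sites. The log2 difference between these factors, 0.011, did not pass (exact permutation, p = 0.255, adjusted p = 0.425 over 5), so a fall particular to subtelomeric sites was not shown. With same-numbered libraries paired, the subtelomeric fall had adjusted p = 0.05 when only WT_PB and WT_rePB were paired and 0.125 when both pairs were (exact permutation). In the shallow groups the subtelomeric value ran from 42.9% in short_PB to 54.4% in WT_PBat.

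The rise in the subtelomeric share was computed on both sides of the 5-kb line. It was 0.092 points among sites over 5 kb from a coding gene end (adjusted p = 0.01) and 0.155 points among sites within 5 kb (adjusted p = 0.0375, both exact permutation). The share of subtelomeric sites inside any annotated gene was 67.6% ± 0.497 in WT_PB, 67.2% ± 0.151 in WT_rePB, 67.3% ± 0.668 in WT_hyPB and 68.9% ± 0.171 in WT_rehyPB. The mean change of 0.575 points did not pass (exact permutation, adjusted p = 0.253), and the pairs differed, with −0.389 and 1.539 points (exact permutation of the difference, p = 0.005, adjusted p = 0.04). Peaks ran towards the chromosome end in 49% to 50% of deep subtelomeric sites, and re-engineering moved this by 0.159 points (exact permutation, adjusted p = 0.61). Median peak height moved by 0.833 reads (exact permutation, adjusted p = 0.457).

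**Figure D5:**
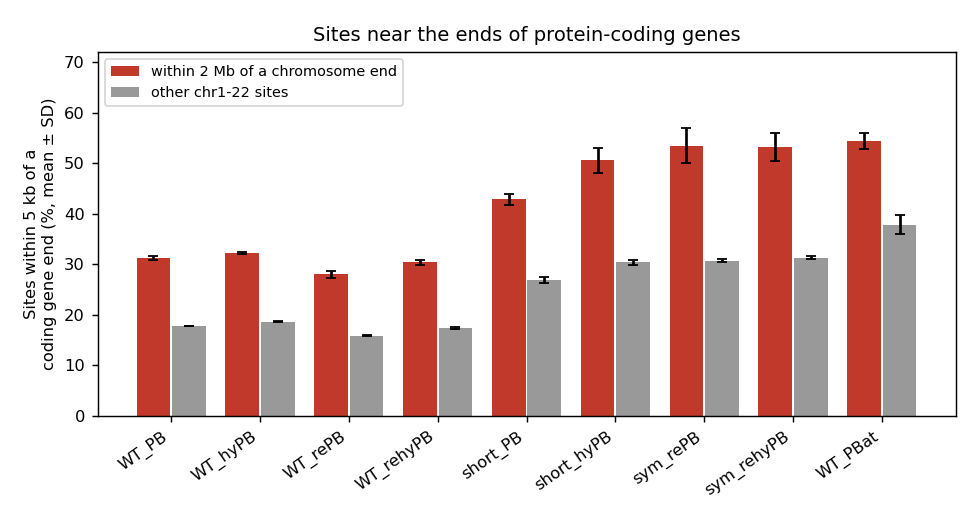
Percent of sites with a protein-coding gene's start or end at most 5 kb away (y axis) by group (x axis), for subtelomeric sites (red) and other sites on chromosomes 1 to 22 (grey); bars are means of 3 libraries and error bars are SD. Red exceeds grey in every group, and WT_rePB is the lowest of both, at 28% and 15.9%. The values are not adjusted for gene density, which differs between subtelomeric windows and the rest.

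Of 1357 protein-coding genes wholly inside the windows, 1060 had a site in at least 1 deep library and 297 had none. By sites per 10000 in the mean of the 4 deep groups the leading 12 were ERC1, DLG1, ANKRD11, PTPRN2, DIP2C, NXN, KANK1, ATP11A, COLEC12, ESYT2, LARP4B and ATP9B. ERC1 at 12p, a scaffold of the cell cortex, had 69 to 91 sites in WT_PB libraries, 85 to 102 in WT_hyPB, 114 to 133 in WT_rePB and 88 to 113 in WT_rehyPB. Per length the order was another one. ESYT2 at 7q, which tethers the endoplasmic reticulum to the plasma membrane, had 42.3 sites per 100 kb in the mean deep library, ANKRD11 at 16q, a chromatin regulator, 30.1, and NXN at 17p, a redox protein, 30. DLG1 at 3q, a cell polarity scaffold, had 29 and ERC1 19.6. The lowest of the 12 was PTPRN2 at 7q, a phosphatase-like receptor 1048.8 kb long, with 5.70.

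Re-engineering changed 12.1% of the 3022 genes tested, 6.32% upward and 5.79% downward (limma, at least 20 sites in the mean library). Of 47 subtelomeric genes tested, 3 rose and 1 fell, with a median log2 change of 0.106 beside 0.037 over all genes. With the linked libraries averaged, 244 of all genes were called instead of 366, 115 upward and 129 downward. Of the subtelomeric genes, 2 then rose and 1 fell. FARP2 at 2q, an activator of small GTPases, had 15, 15 and 14 sites in WT_PB and 25, 21 and 22 in WT_hyPB, against 29, 32 and 32 in WT_rePB and 27, 25 and 30 in WT_rehyPB. Per 10000 sites this was 0.377 ± 0.0559 and 0.546 ± 0.0638 against 0.571 ± 0.032 and 0.744 ± 0.0659 (SD, n = 3), a log2 change of 0.51 ± 0.14 (SE, limma adjusted p = 0.0109). FARP2 kept its call under all 18 alternatives in which it was tested.

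ESYT2 fell, with 51, 39 and 44 sites in WT_PB and 39, 46 and 50 in WT_hyPB, against 43, 47 and 38 in WT_rePB and 40, 30 and 33 in WT_rehyPB, the libraries of WT_rePB being the deepest (log2 change −0.37 ± 0.11, limma adjusted p = 0.0191). KANK1 at 9p, a regulator of actin, had 49, 29 and 49 sites in WT_PB and 48, 48 and 44 in WT_hyPB, against 59, 78 and 79 in WT_rePB and 45, 54 and 55 in WT_rehyPB (0.31 ± 0.10, limma adjusted p = 0.0299). ERC1 had a change of 0.21 ± 0.07 (limma adjusted p = 0.0396). The call was kept under 15 of 19 alternatives for ESYT2, 11 for KANK1 and 6 for ERC1, and only 1 gene rose when genes were scaled to the median or at a peak height of 10 or more.

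Fixed lists of genes, read only where a gene lay wholly inside the windows, held no member with the 20 sites needed for the test. Of all 1357 genes in the windows, 47 (3.46%) had that many, so few list members would be looked for. The median gene of those 1357 had 0.75 sites per deep library. The 4 secreted or gel-forming mucin genes at 11p (MUC2, MUC5AC, MUC5B and MUC6) had 1 listed site in MUC2 over all 12 deep libraries and none in the others. TERT at 5p, the catalytic subunit of telomerase, had a mean of 1.00 sites per deep library, with 0 to 3 in any one, and RTEL1 at 20q, a telomere helicase, had 1.08, with 0 to 2, both above that median. Of 16 growth control and tumour genes, 10 lay wholly inside the windows, with means from 0 in HRAS to 8.50 in INPP5A, which encodes an inositol phosphatase. STK11 at 19p, a tumour suppressor kinase, had 3.92, and the median of the 10 was 2.21, with 7 above the median of all. The 7 of 12 developmental transcription factors inside had 0 to 2.75 sites, with FOXC1 the highest and a median of 0.417. The counts of all these lists are per gene and are not adjusted for gene length. FOXC1 is 3.98 kb long, and FOXQ1, with 1.67 sites, 2.66 kb, beside 98.5 kb for ESYT2. Low counts are thus not read as low density. Of 16 genes of multi-copy families, 15 lay inside, with 0 to 6.25 sites and a median of 0.167. The zinc finger genes ZNF718, ZNF732 and ZNF141 at 4p had none, and TUBB8 at 10p, a tubulin gene, had the most. Reads from copied sequence may not be placed, and the effect of that on these counts was not tested.

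With the short transposon the genes with most sites were NINJ2, ANKRD11 and NXN, with the symmetric NINJ2, NXN and ZBTB45, and with piggyBat ANKRD11, NTSR1 and BAHCC1. NINJ2 at 12p, an adhesion molecule gene, had 3, 3 and 1 sites in short_PB, 3, 1 and 5 in short_hyPB, 2, 2 and 1 in sym_rePB and 4, 1 and 3 in sym_rehyPB, but none in the 3 WT_PBat libraries. NTSR1 at 20q, the neurotensin receptor gene, had 8, 2 and 6 sites with piggyBat, where replicates 1 and 3 are linked, and at most 2 in each short or symmetric library. These counts are too small for a test of single genes.

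Single positions recurred across libraries. Of the 54198 positions, 33171 were listed in 1 library only. The most widely listed was chr15:100723448-100723451 in the long noncoding RNA gene LOC105371024 at 15q, found in 24 libraries and all 9 groups. The second, chr17:83238141-83238144, lies in the pseudogene RPL23AP87 only 19.3 kb from the end of 17q and was listed in 23 libraries of all 9 groups, with peak heights of 14 to 139 in the deep libraries. The target chr12:572056-572059 within NINJ2 and chr16:1358063-1358066 within GNPTG, a gene for a subunit of a lysosomal sorting enzyme, were each listed in 23 libraries of 8 groups, and chr12:751381-751384, beside the kinase gene WNK1, in 22. The last 3 were absent from the WT_PBat listings.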

How the data were processed

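Per the submitters' processing notes, reads were handled with cutadapt 3.4 and HISAT2 2.2.1.0 and builds hg38 and GRCh38.p5; the peak caller is not given in the sources used here. The deposited peak lists give a signal per peak, unscaled by the authors as far as the values show: summed coverage, height (at least 5 reads) and width, called per library. A last constant column was taken as the library's read total, which the sources do not state.

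A site was column 2 on the + strand or column 3 minus 3 on the − strand, counted once per library. Members and lists were chosen with earlier results of these data known. Shares were compared with two-sided exact permutation tests within pairs of groups, adjusted by Benjamini-Hochberg. Windows and genes were fitted with limma 3.58.1 (R 4.3.3) on log2((sites + 0.5) per 10000), with variance trend and a mean of at least 20 sites, and the test scripts were tested on simulated data. Arms named were the 5 densest, 5 sparsest and up to 8 called per direction. Genes named were the 12 with most sites, up to 6 called per direction, the 3 leading with each other transposon or piggyBat, and fixed lists. The examples given from those lists, the hyperactive arms and the arms shown for shallow groups were chosen after their values were seen. Gene positions came from RefSeq GRCh38.p14 and cover 19970 protein-coding genes. Same-numbered deviations of the arm profile correlated at 0.146, 0.208 and 0.496 between WT_PB and WT_rePB and at −0.118, −0.0664 and −0.034 between WT_hyPB and WT_rehyPB; the labels give no shared batch, so the main tests are unpaired and paired values are given where they end a call. Shallow groups were not checked for pairing. Alternatives covered distance, peak height, depth, sharing, linked libraries, scaling, filters, the replicate block and single libraries. The test between pairs for steps and measures, the block in WT_PB and WT_rePB alone, the comparison of factors with other sites, the splits by gene neighbourhood and leaving out single arms were added after the data were seen.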

Additional observations from a re-analysis of the deposited data

Results flagged for a closer look

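Results differed between the re-engineering pairs (WT_rePB against WT_PB, and WT_rehyPB against WT_hyPB) in 4 of 16 exact permutation tests of that difference, each with adjusted p = 0.04 and 3 libraries a group. At 500 to 750 kb from the end the pair effects differed by 0.0142 points. At 1000 to 1250 kb they differed by 0.0232 points, with −0.0046 for piggyBac and 0.0186 for hyperactive piggyBac, and the groups did not overlap in either pair. The long-arm share differed by 0.0719 points between pairs. The share of subtelomeric sites inside an annotated gene differed by 1.9278 points, as −0.389 and 1.539. Groups of 3 are too small for a test of single outlying libraries.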

How the results depend on the processing

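Over 33 results and 628 alternative values, 563 stayed the same. For tests this means the same direction and side of the threshold, and for counts at most 1.5 times apart. Of the rest, 29 became weaker, 13 stronger, 4 reversed and 19 counts moved by over 1.5 times or to or from 0. The cause was not tested. The re-engineering effect on the share was past the threshold in neither unshared sites (0.022 points) nor sites outside annotated genes (0.039). The effect of symmetric against short was not past it within 1 Mb (0.151) or 4 Mb (1.013), at height 10 or more (0.571), at scaled heights (0.880), with the tallest peaks (0.185), in unshared sites (0.451), without 8q, 10q, 16q and 17q (0.201) or over 5 kb from coding gene ends (0.209). Heights scaled to the shallowest library left 6 to 211 sites in a deep library compared with a shallow one; there the short and symmetric effects were 1.496 and 0.919, not past the threshold, and the hyperactive effect was −0.644. With the tallest peaks the symmetric effect was 0.328, and with arms weighted equally the hyperactive one was −0.004 (log2). At height 10 or more, the step at 1750 to 2000 kb reversed (−0.0012), while the log2 ratio of 0-2 to 2-4 Mb (0.043) and the percent listed in another replicate (−23.018) passed. At the main setting that percent moved by −18.758 points (exact permutation, adjusted p = 0.1). The pairs gave −0.684 points for piggyBac and −36.832 for hyperactive piggyBac, the pair that holds the linked WT_hyPB replicates 1 and 2.

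With the replicate block in every pair, where 2 pairs of 3 cannot go below p = 0.0312 (exact permutation), the effects were 0.077 points for re-engineering (exact permutation, adjusted p = 0.075), 0.560 for symmetric against short, 0.930 for the short and 1.414 for the symmetric transposon (adjusted p = 0.0549 each), 0.0242 and 0.0155 for the called steps, 0.041 for short arms and −2.558 for gene ends (adjusted p = 0.125 each), none past the threshold; arm ends counted 9 higher and 2 lower as without it. With the replicate block in WT_PB and WT_rePB only, re-engineering kept its call on the share (0.077, adjusted p = 0.0375), while the called steps (0.0242 and 0.0155), short arms (0.041) and gene ends (−2.558) had adjusted p = 0.05 each (exact permutation), not under the threshold.

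Of arm ends that fell, 0 were called at height 10 or more and 1 with linked libraries averaged. Of genes, 1 rose when scaled to the median, without the variance trend or at height 10 or more; 2 fell with a filter of 5 sites and 0 without the trend. Leaving out single libraries gave 0.067 to 0.083 points for re-engineering, 0.077 to 0.163 for hyperactivity (past the threshold without sym_rehyPB replicate 2), 0.881 to 0.988 for the short, 1.360 to 1.517 for the symmetric transposon, 1.331 to 1.508 for piggyBat and 0.502 to 0.663 for symmetric against short. The difference between pairs ran from 0.077 to 0.110 for re-engineering (past the threshold without WT_rePB replicate 1), 0.342 to 0.657 for hyperactivity, 0.245 to 0.458 for short, 0.064 to 0.405 for symmetric, and 0.316 to 0.657 for symmetric against short; those of hyperactivity, symmetric and symmetric against short passed without sym_rePB replicate 2, and that of short without short_hyPB replicate 1 or 3. Steps ran from 0.0221 to 0.0260 (0 to 250 kb), 0.0051 to 0.0085 (250 to 500), 0.0144 to 0.0169 (500 to 750), −0.0024 to 0.0035 (750 to 1000) and 0.0098 to 0.0150 (1500 to 1750). The change in the percent listed in another replicate, whose main value came mostly from the hyperactive pair, ran from −26.846 to −14.636. Arm ends that fell ran from 0 to 3, and genes from 1 to 3 that rose and 0 to 2 that fell.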

Other observations

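Beyond the subtelomeres the shallow piggyBac groups did not follow the steady inward increase of the deep ones. The share of sites was 3.02% ± 0.215 at 0 to 2 Mb, 4.16% ± 0.0768 at 2 to 4 Mb, 2.94% ± 0.0456 at 4 to 6 Mb, 2.57% ± 0.137 at 6 to 8 Mb and 4.27% ± 0.216 at 8 to 10 Mb in short_hyPB (SD, n = 3). In sym_rePB it was 3.42% ± 0.358, 4.63% ± 0.578, 2.95% ± 0.403, 2.66% ± 0.187 and 4.18% ± 0.3 over the same distances. In WT_PBat it was 3.30% ± 0.178 and 3.14% ± 0.0446 in the first 2 of these, so its log2 ratio of the first to the second, 0.0687 ± 0.0938, was the only positive mean among the 9 groups. These differences were not tested.

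Recurrent targets also lay close together. Beside NTSR1 at 20q, 2 targets 3.95 and 2.86 kb from that gene's nearest end were each listed in 22 libraries of 8 groups and in no WT_PBat library. Around CPSF1 at 8q, a gene for a subunit of the messenger RNA cleavage complex, 2 targets were each listed in 21 libraries, 1 of them in all 3 WT_PBat libraries. These were chosen after their values were seen.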
